A study of Mus musculus with 2 samples.

Results

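The genes described here encode the proteins that start, cut, cap, branch and bundle actin filaments, together with the small proteins that hold or load actin monomers. The set holds 45 genes, chosen by name for these functions, out of 43346 Ensembl genes in the tables. All 45 were found in the gene tables of both libraries. They were read in megakaryocytes, the large blood cells that shed platelets, from which 2 libraries of polyadenylated RNA were sequenced, forming 1 group. The cells were primary cells from mouse embryos of day 14.5, male and female pooled, with no genotype, strain or treatment given in the labels. Both libraries cite the same biosample and donor while being numbered as biological replicates 1 and 2, so their spread may come partly from library making or sequencing. With 1 group no condition was compared and no test was made.

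Actin filaments grow slowly from free monomers until a nucleator offers a starting end. The ARP2/3 complex starts new filaments as branches on old ones once WASP or WAVE proteins switch it on. Profilin feeds monomers to growing ends, thymosin keeps monomers in reserve, cofilin and gelsolin cut filaments, and capping protein stops their growth. Megakaryocytes use this machinery to extend proplatelets and to build the platelet cortex, and loss of WASP in people gives a syndrome with small platelets.

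Replicate 1 held 42099208 rounded expected counts and replicate 2 held 2275920, an 18.5-fold difference in depth. TPM is the deposited level per transcript length and library, and each mean is given ± SD over the 2 libraries (n = 2). The labelled cell type was checked with 15 megakaryocyte markers, all of which had at least 1 TPM in both libraries, led by Gp1bb, a subunit of the von Willebrand factor receptor, at 4022 and 7700.1 TPM. Of 12 macrophage markers 8 reached a mean TPM of 1, with Cd163 and Timd4 at 0 in both libraries, and the list summed to 975 TPM in replicate 1 and 236 in replicate 2. Of 12 granulocyte markers 10 reached it, and that list summed to 879 and 151 TPM. No lymphoid marker of 10 reached a mean TPM of 1. Of 11 erythroid markers found (12 listed) 7 reached it, with sums of 9589 and 15959 TPM led by Hba-a1, an alpha globin, at 4480 and 12716 TPM. Endothelial markers (3 of 8 at that mean) summed to 206 and 300.1 TPM, hepatocyte markers (2 of 8) to 56.4 and 9.87 TPM, and stromal markers (2 of 8) to 3.51 and 2.61 TPM. The part of such cells in the levels below was not tested. In bulk RNA, fewer cells of a type and less RNA per cell cannot be told apart.

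Actin regulators were abundant in these libraries. Of the 45 genes, 43 had a mean of at least 1 TPM, against 22.7% of all genes in the tables, and 40 reached 1 TPM in both libraries, against 18.1% of all genes. Of the 45, 21 had a mean of at least 100 TPM (46.7%, against 13.1% of detected genes, meaning those at a mean TPM of at least 1), and 5 had at least 1000 TPM. Those 5 were Pfn1, Cfl1, Arpc1b, Arpc2 and Coro1a. The median gene of the set stood at 82.7 TPM in replicate 1 and 72.5 in replicate 2, where detected genes had medians of 11.3 and 7.54 TPM. Together the 45 genes held 23681 and 29177 TPM, or 2.37% and 2.92% of all TPM. Pfn1 alone took 39.0% of that sum in replicate 1 and 51.4% in replicate 2. Across the 45 genes the libraries ranked levels alike, with a Spearman correlation of 0.895 (0.764 over 9858 detected genes), given as a description across genes of 2 libraries that share a source.

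**Figure D1:**
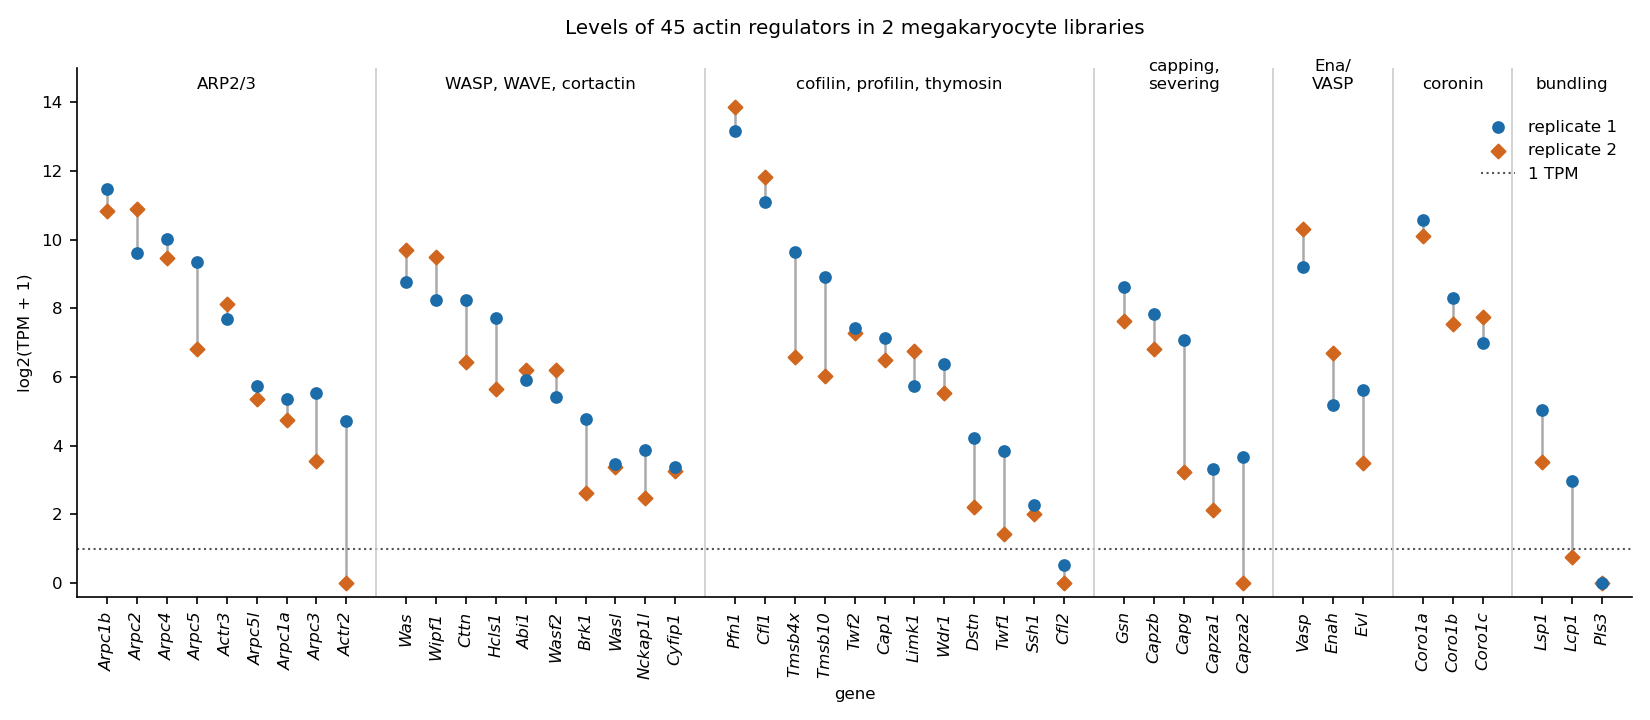
Level of each of the 45 genes on a log2(TPM + 1) scale, by role, with circles for replicate 1, diamonds for replicate 2 and a line joining them; the dotted line marks 1 TPM. Pfn1 is highest in both libraries, Cfl2 and Pls3 lie under the dotted line, and Actr2 and Capza2 are at 0 in replicate 2 only.

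The ARP2/3 complex was expressed at very unequal levels across its subunits. Arpc1b (chromosome 5, 145114215 to 145130705, GRCm38), the form of the propeller subunit that predominates in blood cells, had 2817 and 1834 TPM in replicates 1 and 2 (2326 ± 695). Arpc2 (chromosome 1, 74236084 to 74268209), which with Arpc4 forms the core of the complex, had 787 and 1888 TPM (1337 ± 778), and besides Arpc1b was the only ARP2/3 gene with a mean above 1000 TPM. Arpc4 had 1042 and 712 TPM (877 ± 233). By gene TPM, with non-coding forms included, all of these subunits were above 700 TPM in each library. The coding transcripts of Arpc1b alone had 848 and 327 TPM.

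Arpc5, a small peripheral subunit, had 647 TPM in replicate 1 and 110.5 in replicate 2, while Actr3, the actin-related protein ARP3, had 207 and 277 TPM. Its partner ARP2, encoded by Actr2 (chromosome 11, 20062304 to 20112913), had 25.4 TPM from 881 counts in replicate 1 and 0 counts in replicate 2. At the level of replicate 1, 35.1 counts would have fallen in replicate 2. Arpc3, another peripheral subunit, was also low, at 45.7 and 10.7 TPM. The alternative forms Arpc1a (40.0 and 26.1 TPM) and Arpc5l (52.6 and 40.2 TPM) stayed below their relatives.

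Summing the alternative forms gave 7 subunit positions, each filled once in a complex. By gene TPM, with non-coding forms included, they spanned 113-fold in replicate 1, from ARPC1 at 2857 TPM down to ARP2 at 25.4 TPM. In replicate 2 ARP2 was at 0 and the next lowest position, ARPC3, lay 176-fold below the highest, ARPC2. The order of the positions differed between the libraries: ARPC1 led in replicate 1, and ARPC2 and ARPC1 stood at 1888 and 1860.4 TPM in replicate 2. Span and order rest partly on non-coding forms. Coding transcripts held 30.1% and 17.8% of the Arpc1b TPM, and 17.9% of the Actr2 TPM in replicate 1. Transcript levels of a gene do not measure its protein.

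**Figure D2:**
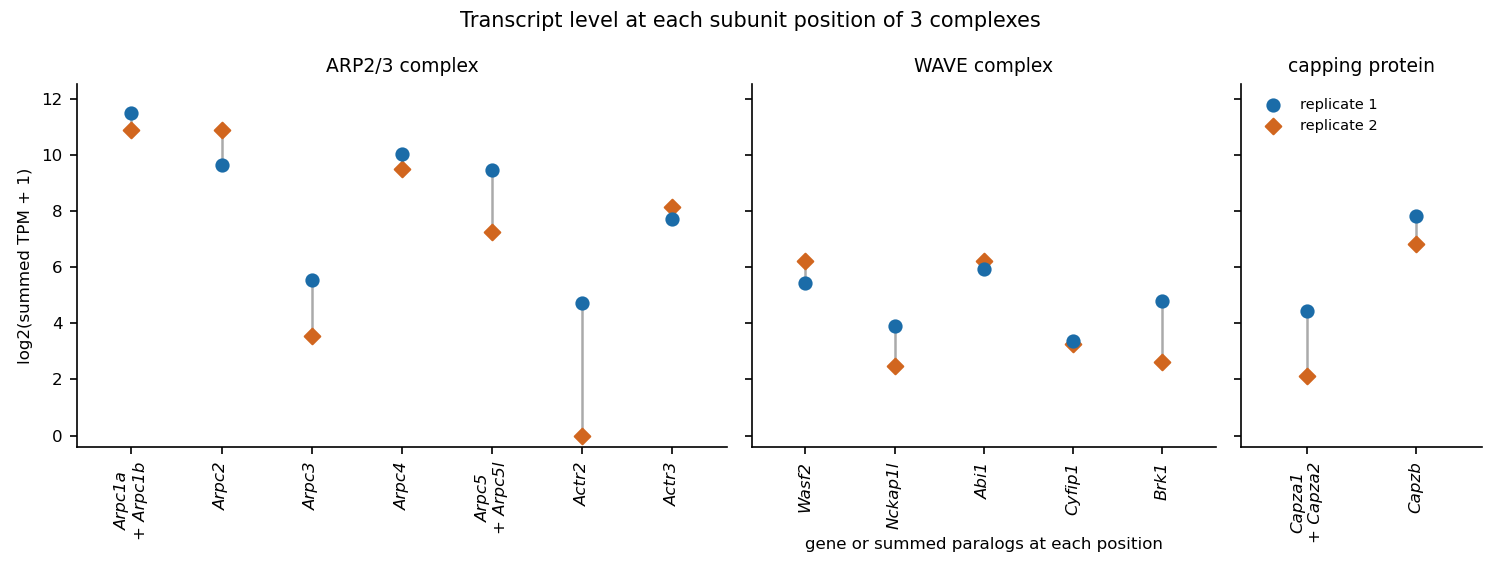
Summed TPM at each subunit position of the ARP2/3 complex, the WAVE complex and capping protein on a log2(TPM + 1) scale, circles for replicate 1 and diamonds for replicate 2. Arpc3 and Actr2 lie far below the other ARP2/3 positions in both libraries, and the alpha subunits of capping protein lie below the beta subunit.

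Among the activators of ARP2/3, WASP stood above WAVE. Was (chromosome X, 8081453 to 8090498), the WASP gene mutated in Wiskott-Aldrich syndrome, had 433 and 832 TPM (633 ± 282). Wipf1, whose product binds and stabilises WASP, had 299 and 725 TPM (512 ± 301). Both were higher in replicate 2. Wasl, the widely expressed N-WASP, had only 10.02 and 9.35 TPM.

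The WAVE complex was represented by 5 genes of the set, all under 100 TPM. Wasf2, the WAVE2 protein itself, had 42.1 and 73.1 TPM, so that Was exceeded it 10.3-fold and 11.4-fold. Abi1, an adaptor of the complex, had 59.55 and 72.5 TPM, of which coding transcripts held 11.1 and 10.7 TPM. Wasf2 and Abi1 varied less than 2-fold between the libraries. Nckap1l, the HEM1 subunit of blood cells, had 13.8 and 4.59 TPM. Cyfip1, the subunit that binds active Rac, had 9.36 and 8.68 TPM, and Brk1, the smallest subunit, had 26.5 and 5.13 TPM. By gene TPM, with non-coding forms included, the highest of these 5 positions exceeded the lowest 6.36-fold in replicate 1 and 15.9-fold in replicate 2.

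The cortactins, which hold ARP2/3 on branches, were both present. Hcls1, the form of blood cells, had 211 TPM in replicate 1 and 49.0 in replicate 2. Cttn, the widely expressed form, had 298 and 85.3 TPM. Which of the 2 led depended on the scale: Hcls1 held 41.4% and 36.5% of their TPM, but 71.9% and 44.6% of their counts. A Cttn transcript of 336 bases that is not annotated as coding, Cttn-203, held 82.5% and 55.6% of the Cttn TPM. Its coding transcripts alone had 35.2 and 37.8 TPM, below Hcls1 in both libraries.

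Genes for monomer handling held the highest levels of the set. Pfn1 (chromosome 11, 70651850 to 70654644), profilin 1, had 9225 TPM in replicate 1 and 14993 in replicate 2 (12109 ± 4079), the 6th highest mean of all genes in the tables. Cfl1 (chromosome 19, 5490455 to 5495201), the cofilin of most non-muscle cells, had 2181 and 3654 TPM (2918 ± 1042). The ratio of Cfl1 to Pfn1 was close between the libraries, at 0.236 and 0.244.

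The thymosins, small peptides that hold actin monomers in reserve, went the other way. Tmsb4x (chromosome X, 167207093 to 167209315), the main thymosin of platelets, had 797 TPM in replicate 1 and 94.3 in replicate 2. Tmsb10 had 479 and 64.0 TPM. Pfn1 therefore exceeded Tmsb4x 11.6-fold in replicate 1 and 159-fold in replicate 2. The share of Tmsb4x in the sum of both was 62.5% in replicate 1 and 59.6% in replicate 2, where the 2 genes had 168 counts together. Their coding sequences (GENCODE M21 on GRCm38) are shown whole because both genes are short and were low together in replicate 2. Capitals mark the 40 of 135 bases at which Tmsb10 differs from Tmsb4x.
Tmsb4x: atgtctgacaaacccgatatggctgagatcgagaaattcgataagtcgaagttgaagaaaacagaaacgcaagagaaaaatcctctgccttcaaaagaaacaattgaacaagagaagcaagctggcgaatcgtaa
Tmsb10: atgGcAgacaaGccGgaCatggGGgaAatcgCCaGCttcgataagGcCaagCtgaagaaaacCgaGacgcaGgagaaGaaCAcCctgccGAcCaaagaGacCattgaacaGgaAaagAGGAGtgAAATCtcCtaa
The longest run of identical bases between them was 10. Outside the pair, Tmsb10 matches 6 annotated genes at 95% identity or more over at least 100 bases, of which Gm9844 held 248 counts in replicate 1 and 43 in replicate 2. In TPM Gm9844 held 18.07 and 68.95, above Tmsb10 itself in replicate 2. The copies held 2.92% of the joint counts in replicate 1 and 44.3% in replicate 2. The level of Tmsb10 in replicate 2, and with it the share of Tmsb4x there, is therefore uncertain. Tmsb4x had no such copy among the annotated transcripts.

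Of the cofilin family only Cfl1 was abundant. Dstn, the depolymerising factor ADF, had 17.6 and 3.66 TPM, and Cfl2, the cofilin of muscle, had 0.44 TPM in replicate 1 and 0 counts in replicate 2. No count in replicate 2 still allows up to 3, or 1.32 CPM (a gene's counts as a share of its library). Cfl1 held 99.2% and 99.9% of the family's TPM. The first 120 coding bases of the 3 genes show how far fragments can be told apart, with capitals where a sequence differs from Cfl1, at 35 bases in Cfl2 and 38 in Dstn.
Cfl1: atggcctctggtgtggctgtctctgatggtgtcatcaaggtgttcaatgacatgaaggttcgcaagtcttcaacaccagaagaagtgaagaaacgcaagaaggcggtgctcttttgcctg
Cfl2: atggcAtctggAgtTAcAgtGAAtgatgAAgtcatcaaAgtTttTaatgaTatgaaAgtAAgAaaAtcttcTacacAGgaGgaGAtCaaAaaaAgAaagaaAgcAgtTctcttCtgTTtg
Dstn: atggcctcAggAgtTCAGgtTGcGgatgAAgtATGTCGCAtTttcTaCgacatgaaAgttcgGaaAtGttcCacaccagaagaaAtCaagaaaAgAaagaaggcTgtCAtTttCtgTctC
Over the aligned coding sequences Cfl1 was 71.9% identical to Cfl2 and 72.6% identical to Dstn.

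The partners of cofilin were at intermediate levels. Cap1, which recycles monomers released by cofilin, had 138 and 88.5 TPM, and Wdr1, which speeds cofilin's disassembly of filaments, had 82.7 and 45.6 TPM. Limk1, the kinase that inactivates cofilin, had 52.7 and 107 TPM. The phosphatase that reactivates it, Ssh1, had 3.8 and 2.99 TPM. Its relatives outside the set, Ssh2 at 11.7 and 34.6 TPM and Ssh3 at 21.9 and 16.9 TPM, both stood above it, Ssh3 being named after its values were seen. Of the twinfilins, which bind monomers and filament ends, Twf2 had 171 and 153 TPM and Twf1 had 13.4 and 1.68 TPM.

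Every one of the 5 capping and severing genes had a lower TPM in replicate 2. A lower TPM there was common, with a median log2 ratio of replicate 2 to replicate 1 of -0.75 over all genes. By TPM 38.1% of 8194 genes averaging 100 counts or more were at least 2-fold lower. Gsn (chromosome 2, 35256380 to 35307892), gelsolin, which cuts filaments and caps the new ends, had 392 and 198 TPM (295 ± 138). Capzb, the beta subunit of capping protein, had 227 and 112 TPM. The alpha subunits were far lower, Capza1 at 8.98 and 3.36 TPM and Capza2 (chromosome 6, 17636234 to 17666972) at 11.6 and 0 TPM. The beta subunit thus exceeded the 2 alpha subunits together 11.04-fold in replicate 1 and 33.4-fold in replicate 2, where Capza2 counts as 0. With the deposited posterior mean TPM, an estimate that gives Capza2 a level above 0 in replicate 2, these were 10.9-fold and 10.1-fold. In the protein 1 alpha pairs with 1 beta subunit. Capza2 had 618 counts in replicate 1, which at an equal level would give 24.7 counts in replicate 2, where 0 were found. Gm3608, a pseudogene 99.5% identical to Capza1 over 2859 bases, held 339 counts in replicate 1 and 0 in replicate 2, so part of the Capza1 signal may have been assigned to it.

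Capg (chromosome 6, 72544391 to 72562983), a gelsolin relative abundant in macrophages that caps without cutting, had 135 and 8.46 TPM, the widest gap of the genes with counts in both libraries. It had 4286 counts in replicate 1 and 8 in replicate 2. Its share of the TPM of Capg and Gsn was 25.6% and 4.11%. The summed macrophage markers went from 975 to 236 TPM and the granulocyte markers from 879 to 151 TPM. Of the 8 genes of each list whose counts averaged 100 or more all 8 were at least 2-fold lower in replicate 2, where 33.8% of all genes at that count were. That minimum favours genes high in the deeper replicate 1, and some markers passed it with 0 counts in replicate 2. These counts of markers are therefore a description only. Of the 15 megakaryocyte markers 3 were at least 2-fold lower in replicate 2 and 4 at least 2-fold higher. The part of macrophages and granulocytes in the Capg result was not tested.

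The Ena/VASP proteins, which let filaments grow on by shielding their ends from capping, were led by Vasp. Vasp (chromosome 7, 19256929 to 19271817) had 592 and 1261 TPM (927 ± 473). Enah, known as Mena, had 35.6 and 103 TPM, of which the 687-base transcript Enah-209 held 85.7% and 92.5%. Evl, the remaining member, went the other way, with 47.8 and 10.3 TPM. Vasp held 87.7% and 91.8% of the family's TPM.

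Coronins, which act on branched networks, were all above 100 TPM in both libraries. Coro1a (chromosome 7, 126699773 to 126707787), the coronin of blood cells, had 1519.6 and 1098 TPM (1309 ± 298). Coro1b had 316 and 185 TPM and Coro1c had 127 and 214 TPM, so by gene TPM Coro1b was second in replicate 1 and Coro1c in replicate 2. That order rests on non-coding forms: coding transcripts alone had 291 and 176 TPM for Coro1b and 7.05 and 5.68 TPM for Coro1c. With TMM, a scaling of counts for library composition, none of the 3 differed by 2-fold between the libraries, but Coro1c was 2.04-fold higher in replicate 2 with DESeq2 size factors and 2.10-fold higher with the GC trend removed. Coro1b shares 432 exon bases on the same strand with Ptprcap, which held 16878 and 831 counts, so the division of fragments between these genes is uncertain.

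The bundling genes of the set were low. Lsp1, a filament-binding protein of leukocytes, had 32.2 and 10.4 TPM. Lcp1, the plastin of leukocytes, had 6.84 and 0.68 TPM from 796 and 3 counts. Pls3, the plastin of solid tissues, had 0 counts in both libraries. By TPM the leukocyte genes Lsp1 and Lcp1 were both lower in replicate 2, as were the macrophage and granulocyte marker sums given above. By posterior mean TPM Lsp1 was lower there (31.95 and 12.36) but Lcp1 was not (7.17 and 7.88). Other genes of the set that are used in blood cells were mixed. With TMM the ratio of replicate 2 to replicate 1 was 0.274 for Hcls1, 0.395 for Nckap1l, 0.759 for Arpc1b, 0.819 for Coro1a and 2.27 for Was. The part of other leukocytes was not tested.

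By TPM, the same gene led in both libraries for 11 of the 12 families of related genes defined within the set, all but the alpha subunits of capping protein. By posterior mean TPM it did so in all 12, with Capza2 at 56.8% and 59.8%. By counts it did so in 11, all but the cortactins. Cfl1, Arpc1b, Was and Twf2 each held over 90% of their family's TPM in each library, and Arpc5 went from 92.5% to 73.3%. Of the Arpc5l TPM, 84.6% and 82.9% lay in Arpc5l-201, annotated as a target of nonsense-mediated decay. Coding transcripts alone had 3.75 and 0.98 TPM for Arpc5l, against 647 and 110 TPM for Arpc5. The 2 alpha subunits of capping protein were near parity in replicate 1, with Capza2 at 56.4%, and in replicate 2 Capza1 held all 19 counts, which allows a share of up to 17.6% of counts for Capza2 (exact Clopper-Pearson interval). For plastin the share of 100% for Lcp1 rests on 3 counts in replicate 2. In 16 pairs of related coding sequences identity ran from 63.1% for Was and Wasl to 76.9% for Capza2 and Capza1, and no run of identical bases was longer than 26.

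**Figure D3:**
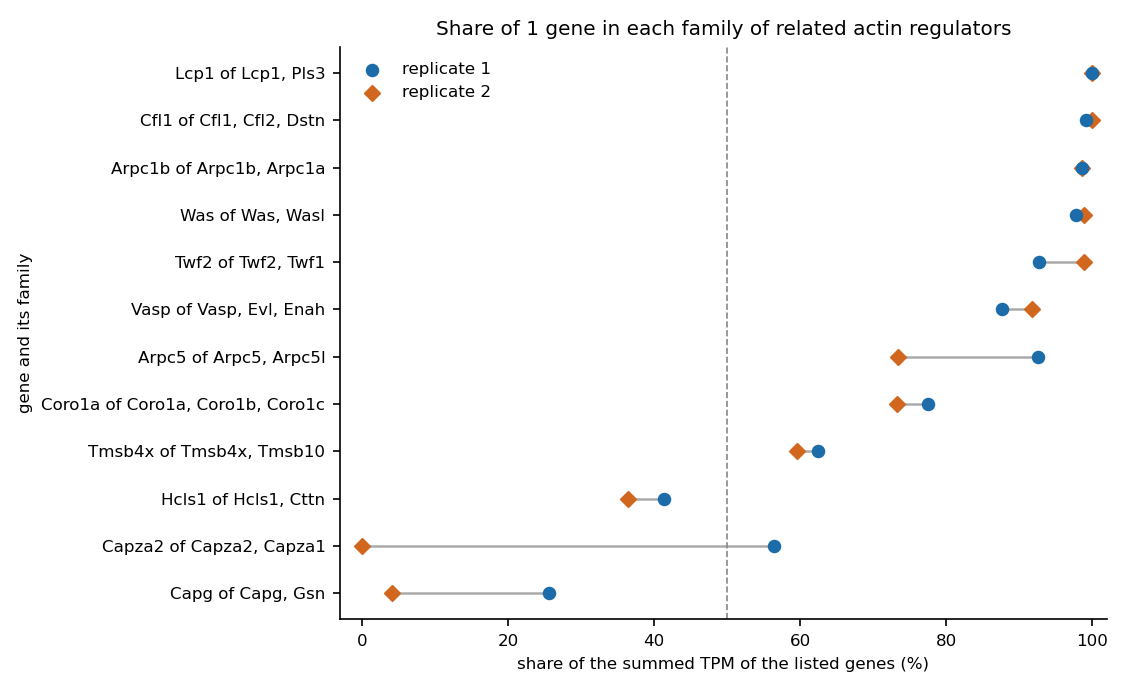
Share of the first-named gene in the summed TPM of its family, in percent, with circles for replicate 1 and diamonds for replicate 2; the dashed line marks 50%. Shares of Arpc1b are 98.6% in both libraries, while those of Capza2, Capg and Arpc5 lie far apart.

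Differences between the libraries were then set against counting error. Counts were scaled by TMM, and single ratios of replicate 2 to replicate 1 carry exact 95% intervals for counting error only, with no replicate check. A mean count of at least 100 was met by 43 of the 45 genes, and Cfl2 and Pls3 fell under it. Of the 43, 17 were at least 2-fold lower in replicate 2, where 33.8% of all genes at that count were, and 7 were at least 2-fold higher, where 15.7% of all genes were. The shares among the 43 were 39.5% and 16.3%, near those of all genes. The median log2 ratio of the 44 genes whose counts averaged 10 or more was -0.39, against -0.52 over 12132 genes. That order turned with other minimums on the count: it was -0.38 against -0.29 at a mean count of 100, -0.34 against -0.03 with counts above 0 in both libraries, and -0.29 against 0.37 at a mean of 50 CPM. Scaling by total counts gave 19 lower, where 43.5% of all genes were, and 3 higher, where 7.30% were. It moved the all-gene median by -0.42. A minimum on the mean count favours genes high in the deeper replicate 1. With a minimum of 50 CPM averaged over both libraries, 25 genes of the set entered, of which 6 were lower (15.8% of all genes) and 5 higher (26.4% of all genes).

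The lower genes were spread over the roles. They were 3 of 9 ARP2/3 genes (Arpc3, Arpc5 and Actr2), 3 of 10 WASP, WAVE and cortactin genes (Nckap1l, Brk1 and Hcls1), 4 of 11 cofilin, profilin and thymosin genes (Dstn, Tmsb4x, Tmsb10 and Twf1), 4 of 5 capping and severing genes (Capg, Capza1, Capza2 and Capzb), Evl, and both bundling genes that met the minimum. The higher genes were Arpc2, Actr3, Was, Wasl, Wipf1, Limk1 and Enah. With TMM no coronin was among either.

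Among genes counted in both libraries Capg had the lowest ratio, 0.0468 (0.0202 to 0.0923), which rests on 8 counts in replicate 2. Lcp1 came next at 0.0945 (0.0194 to 0.277), resting on 3 counts. Tmsb4x, on the larger counts of 20170 and 114, had a ratio of 0.142 (0.117 to 0.170). Arpc5, with 42412 and 342 counts, had a ratio of 0.202 (0.181 to 0.225). Each of these intervals lay wholly beyond a 2-fold difference. Taken against the limit of 3 counts, Actr2 was at least 11.7-fold lower and Capza2 at least 8.22-fold lower in replicate 2. The exact intervals used for the other genes gave wider limits, with ratios of up to 0.105 for Actr2 and 0.150 for Capza2. By posterior mean TPM Actr2 had 24.96 and 1.56 and Capza2 had 11.68 and 5.2, a smaller gap for Capza2.

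On the other side, Wipf1 had a ratio of 2.82 (2.71 to 2.94) and Arpc2 a ratio of 2.81 (2.72 to 2.90). Enah had a ratio of 2.78 (2.31 to 3.32). These 3 were at least 2-fold higher under each of the 6 scalings computed (TMM, DESeq2 size factors, total counts, TPM, and TMM with the trend in GC content or in length removed). Actr3, Was, Wasl and Limk1 were not, and the direction of Wasl itself turned with TPM, at 0.933. Just below the limit lay Coro1c at 1.99, Vasp at 1.98, Cfl1 at 1.96 and Pfn1 at 1.82. Of the 17 lower genes 15 were at least 2-fold lower under all 6 scalings, and Capza1 and Capzb were not. The deposited posterior mean TPM was not among the 6. By it Lcp1 was not lower in replicate 2 (7.17 and 7.88), and Twf1 was less than 2-fold lower (14.4 and 8.66). The remaining genes of the 15 were at least 2-fold lower by it too. The direction of 7 genes differed between scalings (Arpc5l, Wasl, Abi1, Cyfip1, Cttn, Twf2 and Ssh1).

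Base composition moved with the ratio over all genes. Across 12075 genes the ratio correlated with the GC content of the longest transcript at a Spearman correlation of 0.287, and across 44 genes of the set at 0.140, both given as descriptions. Genes of the set under 50% GC had a median log2 ratio of -1.33 (19 genes) and the others one of -0.34 (25 genes), where all genes had -1.09 and -0.10. With the division at 45% GC the set had -0.66 (10 genes) and -0.39 (34 genes), where all genes had -1.41 and -0.32. Of the 43 genes averaging 100 counts or more, both with 0 counts in replicate 2 were poor in GC, Capza2 at 36.1% and Actr2 at 40.3%. Both were also low in level, with 24.7 and 35.1 counts due in replicate 2 at the level of replicate 1. Wasl, at 43.7% GC with 34.35 counts due, had 73. Capg at 57.1% and Tmsb10 at 58.7% were low without being poor in GC, and Arpc2 at 46.6% and Enah at 44.2% were high. With the trend removed, 17 genes were at least 2-fold lower and 8 at least 2-fold higher, against 32.2% and 14.1% of 8171 genes.

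**Figure D4:**
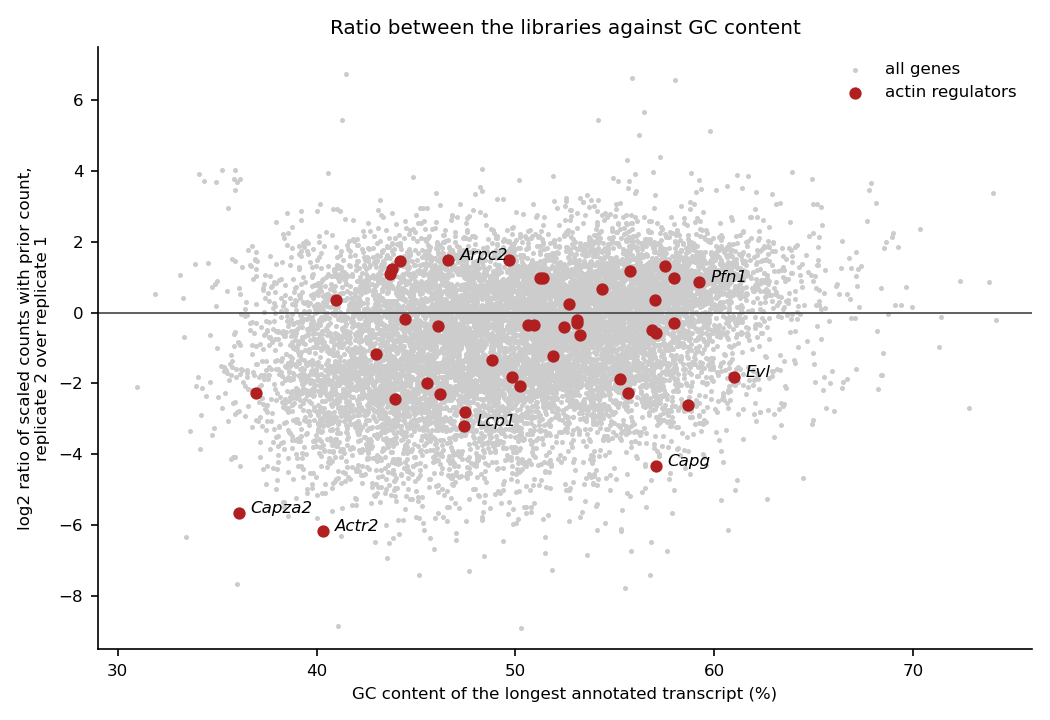
Log2 ratio of replicate 2 to replicate 1, with a prior count added, against the GC content of each gene's longest annotated transcript in percent; grey points are 12075 genes whose counts averaged 10 or more and red points 44 actin regulators. Grey points rise with GC content, and Capza2 and Actr2, whose places depend on the prior count, lie at the lower left.

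Transcript forms were mostly kept between the libraries. Of 34 genes of the set with several annotated transcripts, counts in both libraries and a mean of at least 5 TPM, 28 had the same leading transcript in both (82.4%), against 66.2% of 4695 genes. The 6 that differed were Wasl, Tmsb10, Cap1, Limk1, Evl and Lsp1. In Limk1, the coding form Limk1-202 held 69.7% in replicate 1 and 32.6% in replicate 2, and another coding form, of 3323 bases, held 29.5% and 67.4%. In Evl, Evl-204 held 79.0% in replicate 1 and 0% of the 39 counts in replicate 2. The leading transcript of 7 genes in replicate 1 was not annotated as protein coding in GENCODE M21. They were Arpc1b, Arpc5l, Actr2, Wasl, Abi1, Cttn and Coro1c. The share of all genes with such a leading transcript was not computed. The leading transcript of Arpc4, with 91.7% and 90.6% of its TPM, was not matched in GENCODE M21 and has no biotype here. The matched coding transcripts of Arpc4 held 8.22% and 9.38%.

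These non-coding forms bear on the gene levels given above. For Arpc1b, coding transcripts held 30.1% and 17.8% of TPM, or 848 and 327 TPM, and 41.4% and 53.6% of counts. Actr2 had 82.1% of its TPM in the 452-base retained-intron transcript Actr2-203, which held 259 of 881 counts. For Coro1c the leading transcript, Coro1c-205, is annotated as a target of nonsense-mediated decay and held 94.4% and 97.4%. For Pfn1, coding transcripts held 97.0% and 78.0%, with the decay form Pfn1-204 at 0.873% and 20.3%. A short transcript takes much TPM from few counts, and its estimate divides fragments that fit several forms. In 24 genes coding transcripts held at least 95% of TPM in both libraries, among them Cfl1, Was, Wipf1, Gsn and Arpc2. The share of all genes at that limit was not computed.

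Overlaps with other genes limit single values further. By exon position 17 genes of the set overlap another gene, 3 of them on the same strand (Arpc4 with Ttll3, Arpc5l with Wdr38 and Coro1b with Ptprcap). The share of all genes with such an overlap was not computed. Whether counting used strand is not given in the sources used here, so reads of Arpc1b and Pdap1, which share 931 exon bases on opposite strands, cannot be told apart from these tables. Matches of Was to 11 other genes were stretches of at most 148 bases.

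Other actin genes outside the set were listed in 6 groups. Of 75 found, 48 reached a mean TPM of 1. Of the 46 whose counts averaged 100 or more, 14 were at least 2-fold lower in replicate 2 and 7 at least 2-fold higher, where 33.8% and 15.7% of all genes were. Formins, Spire and Cobl, which nucleate unbranched filaments, had 7 of 14 detected, led by Inf2 at 341 and 727 TPM, Fhod1 at 75.8 and 161 TPM and Daam1 at 34.7 and 95.7 TPM. Daam2, Fmnl2 and Fhod3 had 0 counts. The GTPases and kinases upstream had 10 of 12 detected, led by Rac2, the Rac of blood cells, at 609 and 861 TPM. Rac2 stood above every WASP and WAVE gene of the set in each library.

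Further nucleation promoters had 9 of 13 detected, led by Abi3 at 91.8 and 69.7 TPM. This was above the gene TPM of Abi1 in replicate 1 only, and above the coding transcripts of Abi1 (11.1 and 10.7 TPM) in both libraries. Other severing and capping genes had 9 of 16 detected, led by Add1, an adducin of the membrane skeleton, at 244.5 and 461 TPM, and Flii, a gelsolin relative, at 210.0 and 198 TPM. Vil1, Tmod2 and Lmod1 had 0 counts. Other monomer and cofilin regulators had 8 of 12 detected, led by Tesk1, a kinase of cofilin, at 27.2 and 40.2 TPM. Other coronins and bundlers had 5 of 8 detected, led by Coro7 at 101 and 64.1 TPM. By gene TPM this was below the 3 coronins of the set in each library, but the coding transcripts of Coro1c were lower.

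Promoters were matched for 38 of the 45 genes, giving 51 promoters of 300 bases (250 before and 50 after the start) from RefSeq on GRCm38.p6. The letters GGAAGT, a core bound by ETS factors, or their reverse complement occurred in 27 of the 51 (52.9%), against 28.8% of 9514 promoters of detected genes and 23.8% of all 32851. They were found in 24 of the 38 genes. A GC box, GGGCGG on either strand, was present in 68.6%, against 63.8% of promoters of detected genes. CCAAT on either strand was present in 33.3%, against 37.4%. The GATA letters AGATAA occurred in 1 promoter, of Capza2 (1.96%, against 6.16% of promoters of detected genes). The CArG box, bound by SRF, occurred in 1, of Arpc4 (1.96%, against 1.33%). No other motif searched overlaps the ETS core as written, and a match is a description only. The windows from 75 bases before to 25 bases after the start are shown for the 3 genes of highest mean TPM, with the ETS core in capitals.
Pfn1, chr11:70654626-70654725, - strand: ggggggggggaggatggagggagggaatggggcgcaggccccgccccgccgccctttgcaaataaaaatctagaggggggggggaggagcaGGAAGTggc
Cfl1, chr19:5490380-5490479, + strand: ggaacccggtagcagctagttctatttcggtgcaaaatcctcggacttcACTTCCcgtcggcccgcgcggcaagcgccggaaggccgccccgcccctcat
Arpc1b, chr5:145114181-145114280, + strand: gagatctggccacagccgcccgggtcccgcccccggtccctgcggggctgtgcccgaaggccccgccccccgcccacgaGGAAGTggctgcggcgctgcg
Each window holds 1 such core, beginning 17 bases after the start in Pfn1, 26 before it in Cfl1 and 5 after it in Arpc1b.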

How the data were processed

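Polyadenylated RNA of megakaryocytes was read in 2 libraries of 1 group. The authors deposited a gene table and a transcript table per library, on mm10 with GENCODE M4 per the file lists beside them; no aligner or quantifier is named in the labels or headers. Per the file headers, the expected count is an estimated number of fragments that need not be whole, and TPM is the authors' level per effective length. Rows without an Ensembl identifier (26345) were left out and held 3.56e-05% of counts in replicate 1 and 0% in replicate 2. Symbols and GC content came from GENCODE M21 (GRCm38, equal to mm10) for 98.0% of genes. The isoform percent deposited by the authors was recomputed here from transcript TPM.

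Counts were rounded and scaled with edgeR 4.0.16 (TMM factors 1.16 and 0.859) in R 4.3.3, and with DESeq2 1.42.0 size factors as an alternative; no count test was run. Median ratios used a prior count of 0.5 in replicate 2 and a proportional one in replicate 1. Detection meant a mean of at least 1 TPM, and 2-fold calls used a mean count of at least 100. A count of 0 allows 3 counts, or 0.0713 and 1.32 CPM in replicates 1 and 2. Intervals and limits cover counting error only: without molecular identifiers, fragments may be copies of 1 molecule. Trends with GC content and length were removed by lowess (statsmodels 0.14.6). Copies were sought with BLAST 2.17.0 at 95% identity over 100 bases. The ratio step was tested on simulated data. Python 3.11.15, numpy 2.4.6, pandas 2.3.3, scipy 1.17.1, Biopython 1.88 and matplotlib 3.10.9 were used. The genes, the lists, the families and the motifs were chosen with earlier results of these data known. All genes of the set are named, with up to 3 of the highest genes, and genes at 0, of each other list.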

Additional observations from a re-analysis of the deposited data

How the results depend on the processing

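The number of genes of the set at a mean TPM of 1 stayed between 40 and 43 under 5 alternatives, and that of other actin genes between 36 and 50 under 4. The count of genes at least 2-fold lower moved from 17 to 6 with a minimum of 50 CPM, where 25 rather than 43 genes entered. The share of all genes moved from 33.8% to 15.8%. The count of higher genes moved from 7 to 3 with total counts, and was 10 with DESeq2 size factors (Cfl1, Vasp and Coro1c entering at 2.01, 2.03 and 2.04) and 10 with the length trend removed. Of all genes 15.7% were higher in the main setting, 7.30% with total counts, 16.3% with DESeq2 size factors and 16.9% with the length trend removed. The median log2 ratio moved from -0.39 to -0.82 with total counts and -0.71 with deposited TPM, which moved the median of all genes by -0.42 and -0.23. It stayed under 0 in all 8 alternatives, but lay below the all-gene median in the 3 that changed the count filter (-0.38 against -0.29, -0.34 against -0.03 and -0.29 against 0.37) and above it in the other 5.

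Shares by expected counts moved by more than the spread between replicates for Arpc1b (96.8%, from 98.6%), Tmsb4x (69.4%, from 61.0%), Coro1a (67.2%, from 75.4%), Vasp (93.3%, from 89.7%) and Hcls1 (58.3%, from 38.9%), since counts are not divided by length. Posterior mean TPM gave 98.4% for Arpc1b and 91.6% for Lcp1 in place of 100%; the cause was not tested. Capza2, at 28.2%, was at 58.3% with posterior mean TPM, at 18.2% by counts, and at 0% or 56.4% without a replicate. The other estimates for leading genes and for capping protein were added after seeing the data; posterior mean TPM moved the beta over alpha ratio in replicate 2 from 33.4 to 10.13. The leading transcript was shared by 26 of 34 genes with posterior means, 25 of 30 at 20 TPM and 20 of 22 with at least 100 counts in each library. The share of all genes was not computed at these settings, so these counts have no background.

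No paired analysis was possible because the labels give 1 group. In replicate 2, 4 genes had 0 counts, of which Pls3 had 0 in both libraries.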
